A study of Bos taurus with 9 samples.

Results

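The miRNA of 2 imprinted regions of the bovine genome, the DLK1-DIO3 region of chromosome 21 and the MEST gene of chromosome 4, were examined in extracellular vesicles (EVs) of follicular fluid. Members were the known miRNA loci with a bovine name that lie on chromosome 21 between 67 and 68 Mb of UMD3.1, or that are named bta-miR-335, bta-miR-483 or bta-miR-675. The study tabulated 249 known and homologous miRNA loci, and 4 of them met this rule, namely bta-miR-127, bta-miR-411a and bta-miR-410 in the DLK1-DIO3 region and bta-miR-335 in MEST. The deposited counts held 101889 loci in all. No locus of the tables bears the name of bta-miR-483 (IGF2) or bta-miR-675 (H19).

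EVs are membrane vesicles that cells release and that carry small RNA, and the fluid of an ovarian follicle holds those shed by the cells around the oocyte. Small RNA was sequenced from EVs of small (3 to 5 mm), medium (6 to 9 mm) and large (above 9 mm) follicles of cows, with 3 samples at each size. Ovaries came from an abattoir, and each sample is a pool of the fluid of many follicles of 1 size, so healthy and regressing follicles are mixed within it. The methods describe 3 collections that each gave fluid of every size, but neither they nor the labels tie a sample to its collection, so the tests carry no term for it. Samples carried no treatment, and they are named by size and by the number in their title (small 1, 2 and 4, medium 5, 6 and 8, large 10, 11 and 12). The deposited counts summed to between 8941598 and 14664460 per sample. Counts on the 249 miRNA loci ranged from 146617 in large 11 to 3394554 in small 1, and their share of the deposited counts was 21.4% ± 6.59 in small follicles, 6.28% ± 4.27 in medium and 2.89% ± 2.39 in large ones (SD, n = 3 each). A count of 0 allows up to 3 counts, which is 0.884 counts per 1000000 counts (CPM) of the 249-locus total in small 1 and 20.5 in large 11, for counting error only.

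Imprinted genes are expressed from 1 parental chromosome. The DLK1-DIO3 region holds one of the largest miRNA clusters of placental mammals, transcribed from the maternal chromosome together with snoRNA and long noncoding RNA, while its protein genes DLK1, RTL1 and DIO3 are expressed from the paternal chromosome. MEST is a paternally expressed gene and carries miR-335 in an intron. The cluster is known for its activity in embryo, placenta, stem cells and brain. Parental origin of the RNA was not measured here.

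The members are spread over the cluster and do not sample it densely. bta-miR-127 occupied chr21:67429798-67429819 (UMD3.1, plus strand, 22 bases), in the part of the cluster where miRNA are encoded opposite RTL1, a gene derived from a retrotransposon and needed in the placenta. bta-miR-411a lay at chr21:67563112-67563133 (plus strand, 22 bases), 133292 bases further on. bta-miR-410 lay at chr21:67603914-67603934 (plus strand, 21 bases), another 40780 bases downstream. Both of these belong to the group known as the miR-379/miR-410 cluster. bta-miR-335 lay at chr4:95071006-95071028 (plus strand, 23 bases), and the locus named chi-miR-335-3p, after the goat sequence, at chr4:95071042-95071063 on the same strand, 13 bases after it. These are the positions of the 2 arms of 1 hairpin, and chi-miR-335-3p was followed as the partner arm although its name keeps it outside the rule. In the RefSeq annotation of a later assembly (ARS-UCD2.0, used for names and order only), 59 miRNA genes and 33 snoRNA genes stand between DLK1 and DIO3. There MIR127 is spanned by RTL1 and stands between MIR433 and MIR432, MIR411A stands between MIR379 and MIR299, MIR410 stands between MIR369 and MIR323B, and MIR335 is spanned by MEST. Of 44 miRNA names of the DLK1-DIO3 cluster that were searched, 3 had a locus in the tables.

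bta-miR-335 had the highest total of the members (32751 counts over 9 samples) and was the only one called between sizes by the edgeR quasi-likelihood test after TMM scaling over the 249 loci. Counts of bta-miR-335 were 16638, 7739 and 6483 in small follicles, 440, 664 and 588 in medium, and 63, 19 and 117 in large ones. As CPM of the 249 loci after TMM scaling (hereafter normalized counts), these were 5116, 6592 and 2359 in small follicles, 807, 1513 and 495 in medium, and 351, 135 and 207 in large ones. The 3 sizes did not overlap, and every large sample stood below every medium sample and every medium sample below every small one. Pair by pair, such a lower place without overlap was common among the 249 loci. It held for 29.3% in large versus small, 16.9% in medium versus small and 17.7% in large versus medium follicles.

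The normalized count of bta-miR-335 was 4689 ± 2149 in small follicles, 938 ± 521 in medium and 231 ± 110 in large ones (SD, n = 3 each). From small to large follicles it fell 20.3-fold (log2 fold change -4.34, SE 0.58, FDR = 0.000598, edgeR quasi-likelihood test with Benjamini-Hochberg adjustment over the 249 loci), the second lowest log2 fold change of the 249. From medium to large follicles it fell by 2.02 on the log2 scale (SE 0.53, FDR = 0.0444, edgeR). From small to medium follicles the log2 fold change was -2.32 (SE 0.52, FDR = 0.0676, edgeR), which did not pass the threshold of 0.05. The fall from medium to large follicles passed in 4 of 9 fits with 1 sample left out (FDR 0.0345 to 0.141, edgeR), and did not pass without small 1, medium 5, medium 6, large 11 or large 12. It also did not pass when scaled to the total of all deposited loci (FDR = 0.0518, edgeR), with TMM over all deposited loci (FDR = 0.189, edgeR), when all deposited loci were tested (FDR = 0.325, edgeR) or when the 2 sizes were fitted alone (FDR = 0.0738, edgeR). The fall from small to large passed in all 9, and it was -7.16 and -8.75 on the log2 scale under those 2 scalings to all deposited loci (FDR = 0.000153 and 8.42e-06, edgeR), under which the difference from small to medium follicles passed as well (-4.15 and -5.36, FDR = 0.00970 and 0.0184, edgeR). In EVs of pooled fluid, fewer vesicles that carry a miRNA and less of it in each vesicle cannot be told apart.

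bta-miR-335 was the 1 member called of 4 in large versus small follicles, where 42.2% of the 249 loci were called (24.5% lower and 17.7% higher). It was again the 1 member called of 4 in large versus medium follicles, where 10.4% were called (4.82% lower and 5.62% higher). With 1 sample left out, the loci called ranged from 63 to 105 in large versus small and from 0 to 24 in large versus medium. Over 10 alternatives they ranged from 84 to 232 and from 0 to 65. No member was called in medium versus small follicles, where 0% of the 249 were called by the edgeR quasi-likelihood test, 44 loci had an unadjusted p under 0.05, and edgeR's exact test and DESeq2 called 16 and 28 loci, bta-miR-335 included. The median log2 fold change of the members from small to large follicles was -0.15, beside -0.18 for all 249 loci. It was -1.08 beside -0.17 from small to medium, and 0.52 beside 0.00 between medium and large. With 4 members, these medians describe no shared direction.

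**Figure D1:**
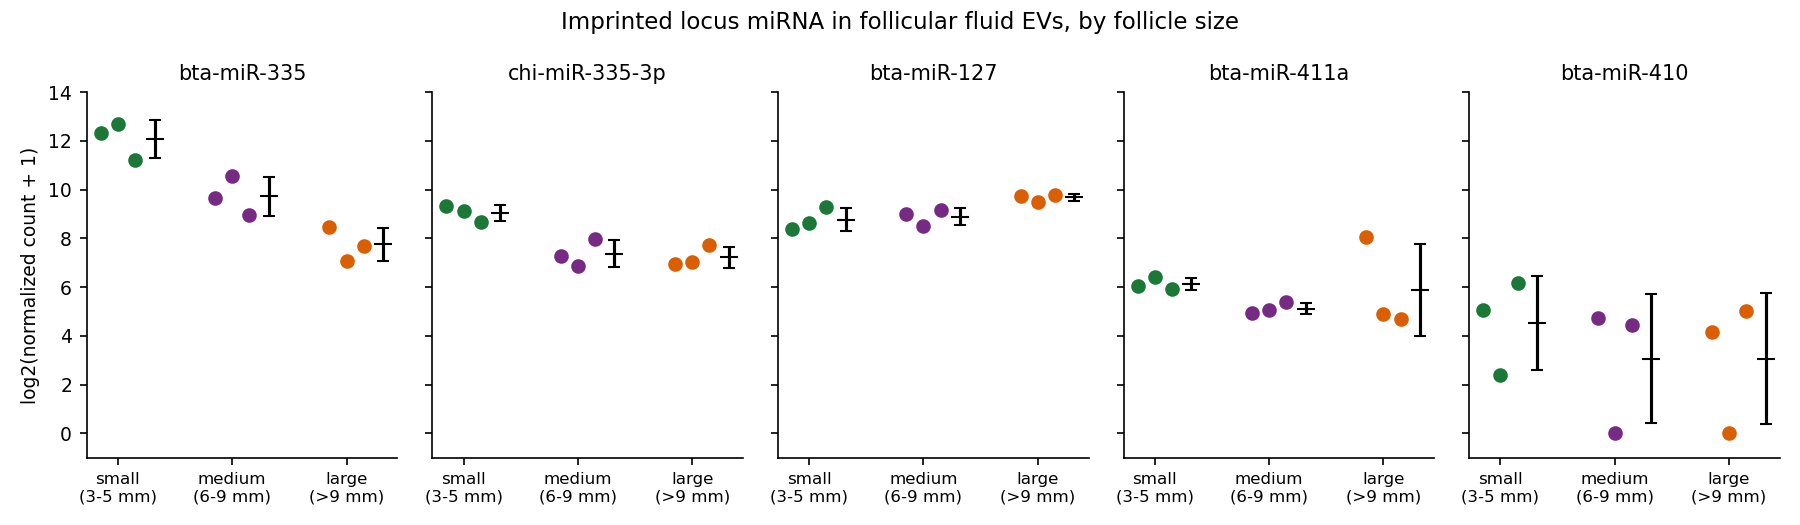
Normalized counts of the 4 members and of chi-miR-335-3p on the log2(value + 1) scale, by follicle size; each point is 1 sample, and the bar at its right is the mean ± SD of the 3 log2 values. bta-miR-335 steps down from small (4689 on the linear scale) to large follicles (231), while bta-miR-127 is higher in the 3 large samples than in the 6 others, although its mean is lowest in large follicles when samples are scaled to all deposited counts, and bta-miR-411a in large follicles rests on large 10.

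The partner arm fell from small to large follicles too, by less than bta-miR-335. The normalized count of chi-miR-335-3p was 634, 550 and 405 in small follicles, 156, 114 and 249 in medium, and 123, 128 and 210 in large ones. All small samples stood above the other 6, and the medium and large samples overlapped. From small to large follicles it fell by 1.76 on the log2 scale (SE 0.41, FDR = 0.00659, edgeR). The log2 fold change from small to medium follicles was -1.61 (SE 0.40, FDR = 0.0676, edgeR), and from medium to large -0.15 (SE 0.40, FDR = 0.843, edgeR). Scaled to the total of all deposited loci and with TMM over all deposited loci, chi-miR-335-3p changed by -4.50 and -6.09 from small to large follicles (FDR = 0.00153 and 0.000259, edgeR) and by -3.04 and -3.91 from small to medium (FDR = 0.0407 and 0.0371, edgeR). From medium to large the values were -1.46 and -2.18 (FDR = 0.251 and 0.230, edgeR).

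The 2 arms of the miR-335 hairpin were read in different proportions at different sizes. A ratio of 2 loci within a sample needs no scaling between samples. Counts of bta-miR-335 were 8.06, 12.0 and 5.82 times those of chi-miR-335-3p in small samples, 5.18, 13.3 and 1.99 times in medium samples, and 2.86, 1.06 and 0.983 times in large samples. Every small sample had a higher ratio than every large one, while medium samples ranged across both. The share of bta-miR-335 in the counts of both arms was 92.3% (95% Wilson interval 91.7 to 92.8) in small 2 and 49.6% (43.3 to 55.9) in large 12, and in large 11, with 37 counts on both arms, it was 51.4% (35.9 to 66.6). These intervals cover counting error only, since amplified reads without molecular identifiers are not independent molecules. The log2 ratio was 3.04 ± 0.52 in small follicles, 2.36 ± 1.36 in medium and 0.52 ± 0.85 in large ones (SD, n = 3 each), and it decreased with the size rank by 1.26 per step (exact permutation test over 1680 arrangements, two-sided, p = 0.0202, adjusted over 5 trend tests p = 0.0337). Leaving out small 2, large 11 or large 12 took this trend past 0.05 even before adjustment (exact permutation p = 0.0536, 0.0536 and 0.0554). Between large and small follicles alone the exact permutation p was 0.1, the smallest that 3 samples against 3 allow. Within each size the sample with the lowest ratio (small 4, medium 8 and large 12) was also the one with the highest share of counts on the 249 loci, at 26.9%, 11.2% and 5.65%. The part of this in the ratio was not tested.

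bta-miR-127, encoded in the RTL1 part of the DLK1-DIO3 cluster, had its highest normalized counts in large follicles, on the scale of the 249 loci only, and its differences did not pass the edgeR quasi-likelihood test after TMM scaling, while DESeq2 and DESeq2's size factors called it higher in large than in small follicles, and both scalings to all deposited loci called it lower. Its counts were 1068, 461 and 1704 in small follicles, 278, 157 and 685 in medium, and 154, 102 and 497 in large ones. The normalized counts were 328, 393 and 620 in small follicles, 510, 358 and 577 in medium, and 859, 725 and 879 in large ones. The large samples stood above the other 6, and small and medium samples overlapped. The mean was 447 ± 153 in small follicles, 482 ± 112 in medium and 821 ± 83.9 in large ones (SD, n = 3 each).

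From small to large follicles the log2 fold change of bta-miR-127 was 0.88 (SE 0.35, unadjusted p = 0.0267, FDR = 0.0603, edgeR), which did not pass, and it became -2.09 (FDR = 0.0373, edgeR) when samples were scaled to the total of all deposited loci and -3.77 (FDR = 0.00655, edgeR) with TMM over all deposited loci. Without small 4 the value was 1.30 (FDR = 0.0243, edgeR). DESeq2 gave an adjusted p of 0.0262, and DESeq2's size factors in the edgeR test gave FDR = 0.0475. The log2 fold change from small to medium follicles was 0.11 (SE 0.34, FDR = 0.877, edgeR) and from medium to large 0.77 (SE 0.35, FDR = 0.147, edgeR), and both turned negative under those 2 scalings. Of the 4 members, bta-miR-127 and bta-miR-335 did not overlap between large and small follicles, beside 53% of the 249 loci (29.3% lower and 23.7% higher), and these members did not overlap between large and medium follicles, beside 36.1% of the loci.

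The reversal follows the median of the set. That median moved from -0.18 with TMM of the set to -3.06 with the total of all deposited loci and to -4.71 with TMM over all deposited loci, and the share of counts on miRNA was lower in large follicles. Relative to the median of the 249 loci, bta-miR-127 changed by 1.06, 0.97 and 0.94 on the log2 scale under these 3 scalings. bta-miR-335 changed by -4.16, -4.10 and -4.03 relative to it. As a share of the deposited counts, bta-miR-127 made up 97.3 ± 61.7 CPM in small follicles, 33.6 ± 27.1 in medium and 22.8 ± 17.4 in large ones (SD, n = 3 each), a decrease with the size rank (exact permutation test, p = 0.0357, adjusted over 5 trend tests p = 0.0446). By the unadjusted p, this trend passed in 5 of 9 runs with 1 sample left out (exact permutation p up to 0.1). It was lost without small 1, small 4, large 10 or large 11. Over the counts of loci of 18 to 30 bases it did not pass (unadjusted exact permutation p = 0.0905). Divided by the counts on the 249 loci instead, the share of bta-miR-127 increased with size (exact permutation p = 0.0190). For bta-miR-335 the share of the deposited counts was 879 ± 249 CPM in small follicles, 49.5 ± 11.3 in medium and 6.11 ± 4.09 in large ones (SD, n = 3 each), also a decrease with the size rank (exact permutation p = 0.00119, the smallest that 1680 arrangements give, adjusted p = 0.00595).

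**Figure D2:**
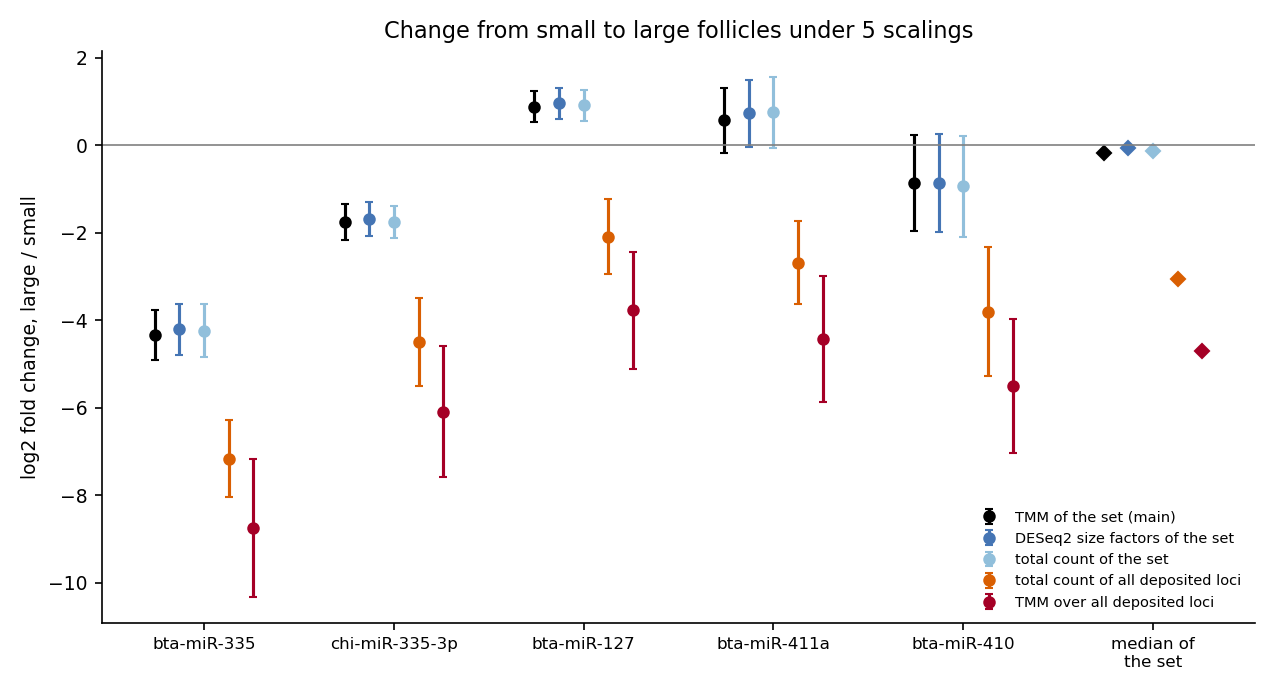
Log2 fold change from small to large follicles (points, edgeR) with its standard error (bars) for the members and chi-miR-335-3p under 5 scalings, with diamonds for the median of the 249 loci. bta-miR-335 is lower under all 5 (-8.75 to -4.21), whereas bta-miR-127 and bta-miR-411a lie above 0 under the 3 scalings of the set and below 0 under the 2 scalings of all deposited loci, where the median lies at -3.06 and -4.71.

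The ratio of bta-miR-335 to bta-miR-127 compared 1 locus of each region free of scaling. Counts of bta-miR-335 were 15.6, 16.8 and 3.80 times those of bta-miR-127 in small follicles, 1.58, 4.23 and 0.858 times in medium, and 0.409, 0.186 and 0.235 times in large ones. In all small samples bta-miR-335 had more counts than bta-miR-127, and in all large samples fewer. The read yield of each sequence was not measured. The ratio is therefore read for its change across sizes, not for which molecule was more abundant. The mean log2 ratio was 3.32 ± 1.21 in small follicles, 0.84 ± 1.16 in medium and -1.92 ± 0.57 in large ones (SD, n = 3 each), and it decreased by 2.62 per size step (exact permutation test, two-sided, p = 0.00238, adjusted over 5 trend tests p = 0.00595). By the unadjusted p, this trend kept its side of 0.05 with each sample left out in turn.

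**Figure D3:**
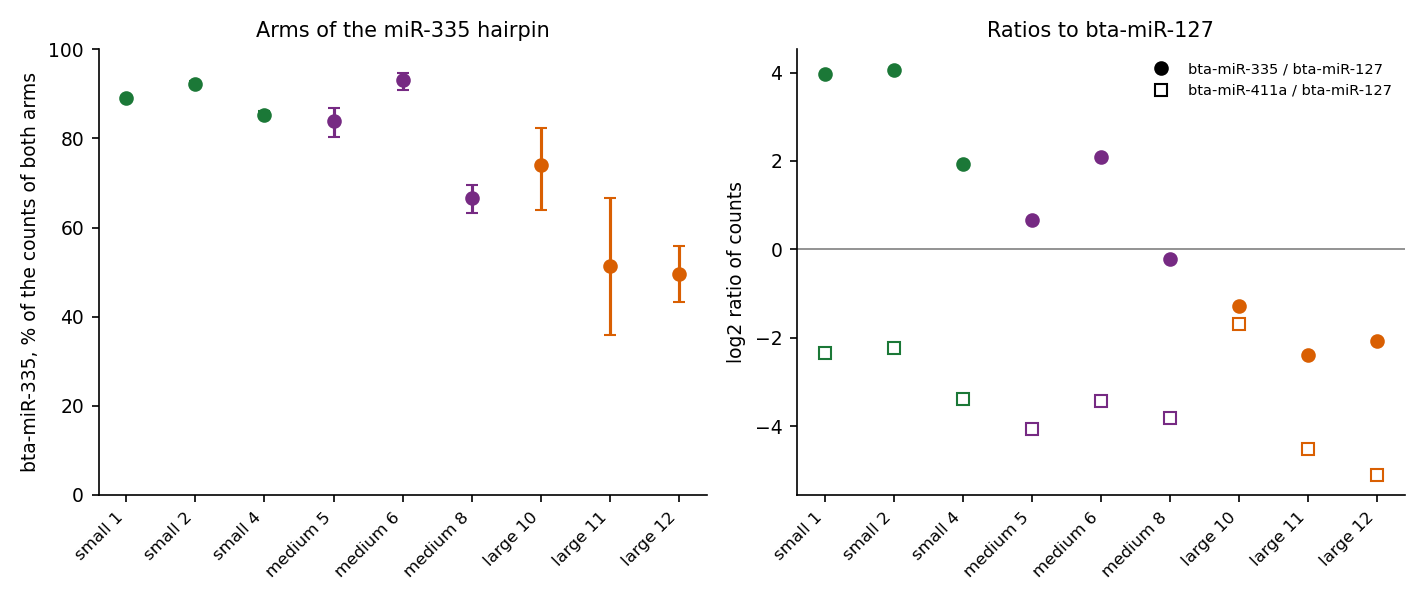
Left, share of bta-miR-335 in the counts of both arms of its hairpin in each sample, in percent with 95% Wilson intervals; right, log2 ratio of the counts of bta-miR-335 (filled circles) and bta-miR-411a (open squares) to those of bta-miR-127 in each sample. The share lies at 85.3% or above in small samples and at 74.1% or below in large ones, the miR-335 to miR-127 ratio crosses 0 between small and large follicles, and the miR-411a ratio of large 10 stands apart from the other 2 large samples.

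bta-miR-411a, of the distal part of the cluster, was scarce, and its level in large follicles depended on 1 sample. Its counts were 211, 98 and 163 in small follicles, 16, 14 and 48 in medium, and 47, 4 and 14 in large ones. The normalized counts were 64.9, 83.5 and 59.3 in small follicles, 29.3, 31.9 and 40.4 in medium, and 262, 28.4 and 24.8 in large ones. Large 10 was the highest of the 9 samples and the other 2 large samples were the lowest, while every medium sample stood below every small one, as did 16.9% of the 249 loci (28.5% had no overlap in either direction).

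bta-miR-411a reached the study's limit for tabulated loci, a mean count of 100 in at least 1 size, through small follicles alone (means 157, 26 and 21.7), so that a lower value outside small follicles is partly set by its selection, and its values against small follicles are a description. The log2 fold change of bta-miR-411a was 0.56 from small to large follicles (SE 0.74, FDR = 0.545, edgeR), and it was -1.40 without large 10 (FDR = 0.0442, edgeR), -2.69 when scaled to the total of all deposited loci (FDR = 0.0192, edgeR) and -4.43 with TMM over all deposited loci (FDR = 0.00351, edgeR). It was -1.01 from small to medium follicles (SE 0.73, FDR = 0.535, edgeR). From medium to large it was 1.57 (SE 0.77, FDR = 0.187, edgeR), and it was -0.39 without large 10. Relative to bta-miR-127, counts of bta-miR-411a were 0.198, 0.213 and 0.0957 in small follicles, 0.0576, 0.0892 and 0.0701 in medium, and 0.305, 0.0392 and 0.0282 in large ones. The log2 ratio showed no trend past 0.05 with the size rank (slope -0.56, exact permutation p = 0.240, adjusted p = 0.240), and without large 10 the slope was -1.08 (exact permutation p = 0.00357), to which the same selection through small follicles applies. Large 10 had the lowest number of counts on members but one (267) and a total of 154101 on the 249 loci. Whether its value reflects the sampling of few molecules was not tested.

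bta-miR-410, the last member along the cluster, had at most 25 counts in each medium and large sample, and 5 in small 2. Its counts were 105, 5 and 193 in small follicles, 14, 0 and 25 in medium, and 3, 0 and 18 in large ones. Medium 6 and large 11 had no count, where 3 counts would be 6.86 and 20.5 CPM of the set. In normalized counts the samples held 32.3, 4.26 and 70.2 in small follicles, 25.7, 0 and 21.1 in medium, and 16.7, 0 and 31.8 in large ones, and the sizes overlapped. The log2 fold change from small to large follicles was -0.87 (SE 1.09, FDR = 0.526, edgeR), from small to medium -1.14 (SE 1.01, FDR = 0.586, edgeR) and between medium and large 0.27 (SE 1.16, FDR = 0.912, edgeR). Scaled to the total of all deposited loci the value from small to large was -3.81 (FDR = 0.0297, edgeR), and with TMM over all deposited loci -5.50 (FDR = 0.000841, edgeR), where the median of the 249 loci was -3.06 and -4.71. On the scale of the set it became 0.17 without small 4, and that from medium to large turned negative without medium 6 or large 12. At the standard errors of the set's scale a difference of the size seen was not detectable.

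bta-miR-410 was just inside the limit of 100, with a mean count of 101 in small follicles, 13 in medium and 7 in large ones, so it too was tabulated through small follicles alone and its values against them are a description. A locus of 23 bases at chr21:67603291-67603313 (plus strand), 600 bases before bta-miR-410, had a mean count of 99.0 in small follicles and was thus just outside it. bta-miR-335 reached the limit in small and medium follicles and bta-miR-127 at every size.

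In level, members held different places among the 249 loci. All 4 are 21 to 23 bases long, so they differ little in length. The read yield of each sequence was not measured, so the ranks are of counts. bta-miR-335 ranked 46th from the highest in small, 92nd in medium and 147th in large follicles. bta-miR-127 ranked 122nd, 116th and 99th, and thus stood above bta-miR-335 in large follicles only. bta-miR-411a ranked 200th, 236th and 189th and bta-miR-410 248th, 248th and 239th, near the bottom of the set at every size. Between the means of bta-miR-411a and bta-miR-410 in large follicles (105 ± 136 and 16.2 ± 15.9, SD, n = 3) the spread was larger than the difference.

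Members also differed in how steady they were. The coefficient of variation of bta-miR-410 was 93.0% in small follicles, 87.9% in medium and 98.4% in large ones, beside medians of 30.4%, 31.0% and 40.0% for the loci of the set. That of bta-miR-411a was 18.3%, 17.2% and 129%. That of bta-miR-335 was 45.8%, 55.5% and 47.7%. That of bta-miR-127 was 34.3%, 23.4% and 10.2%, above the median in small follicles and below it at the other sizes.

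How closely the members moved together over the 9 samples depended on the scale. On the scale of the set, Pearson's r of log2(normalized count + 1) over 9 samples, given as a description since samples of 1 size share their level, was 0.09 between bta-miR-127 and bta-miR-411a, 0.21 between bta-miR-127 and bta-miR-410 and 0.22 between bta-miR-411a and bta-miR-410. Between bta-miR-335 and bta-miR-127 it was -0.82, and between bta-miR-335 and its partner arm 0.755. On log2(CPM + 1) of all deposited counts, where all share the lower miRNA content of large samples, these 5 values were 0.798, 0.904, 0.714, 0.757 and 0.926, in the same order, and that between bta-miR-335 and bta-miR-127 turned positive. This second scale was chosen after the data were seen. On the scale of the set, the loci most like bta-miR-335 were bta-miR-19a (r = 0.967), bta-miR-1839 (r = 0.954) and bta-miR-20a (r = 0.949). Of these, miR-19a and miR-20a belong to the miR-17-92 cluster, known for its part in cell proliferation. That cluster did not move as 1. Its bta-miR-17-5p and bta-miR-19b were lower in every large than in every small sample. Its bta-miR-92a had 22784 to 37302 normalized counts in small samples and 29145 to 61917 in large ones. bta-miR-19a had a normalized count of 764 ± 432 in small follicles, 175 ± 54.4 in medium and 52.2 ± 34.4 in large ones (SD, n = 3 each), and a log2 fold change of -3.86 from small to large (FDR = 0.000598, edgeR).

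The loci most like bta-miR-127 were bta-miR-342 (r = 0.915), chi-let-7d-3p (r = 0.885) and bta-miR-1468 (r = 0.873), each higher in large than in small follicles on the scale of the set (log2 fold changes 0.98, 1.88 and 1.72, FDR = 0.0400, 0.0116 and 0.00615, edgeR). For bta-miR-411a they were bta-miR-34a (r = 0.854), bta-miR-6123 (r = 0.732) and bta-miR-6120-3p (r = 0.716), and for bta-miR-410 bta-miR-143 (r = 0.801), bta-miR-193b (r = 0.785) and mmu-miR-1983 (r = 0.782). None of these 6 passed in large versus small follicles (FDR 0.0860 to 0.916, edgeR).

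Tabulated miRNA within 1 Mb of the members gave the local setting of each region. On chromosome 21, bta-miR-342, whose host gene is EVL, lay 722865 bases from bta-miR-127, and bta-miR-345-3p lay 562637 bases from it. The normalized count of bta-miR-342 was 480, 491 and 740 in small follicles, 495, 433 and 793 in medium, and 1009, 1272 and 1090 in large ones. It was higher in every large sample than in the others, with a log2 fold change from small to large of 0.98 (SE 0.34, FDR = 0.0400, edgeR). This value became -2.06 (FDR = 0.0378, edgeR) when scaled to the total of all deposited loci and -3.76 (FDR = 0.00611, edgeR) with TMM over them. The call on the scale of the set held in 4 of 9 fits with 1 sample left out (FDR 0.0243 to 0.132, edgeR) and was lost without small 1, small 2, medium 5, large 10 or large 11. bta-miR-345-3p had a log2 fold change of -0.64 (SE 0.45, FDR = 0.264, edgeR), which became -3.55 (FDR = 0.00616, edgeR) when scaled to the total of all deposited loci and -5.23 (FDR = 0.00108, edgeR) with TMM over them.

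On chromosome 4, bta-miR-29a, known for targeting collagen and other matrix genes, lay on the minus strand 331291 bases from bta-miR-335. Its normalized counts were 6579, 5371 and 6286 in small follicles, 4147, 4536 and 3972 in medium, and 792, 1250 and 2474 in large ones, in 3 groups without overlap. It fell by 2.01 on the log2 scale from small to large follicles (SE 0.40, FDR = 0.00328, edgeR), and its log2 fold change was -4.67 and -6.27 under the same 2 scalings. bta-miR-182, of the miR-183 cluster, lay on the minus strand 664219 bases from bta-miR-335 and had a log2 fold change of 1.40 (SE 0.51, FDR = 0.0440, edgeR). This value became -1.26 (FDR = 0.203, edgeR) when scaled to the total of all deposited loci and -2.83 (FDR = 0.0361, edgeR) with TMM over them. The call on the scale of the set held in 3 of 9 fits with 1 sample left out (FDR 0.0164 to 0.151, edgeR), those without small 1, medium 6 or large 10.

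The deposited counts hold more of the DLK1-DIO3 region than the named miRNA. Between 67 and 68 Mb of chromosome 21 there were 57 loci, of which 14 were 20 to 24 bases long and 43 had other lengths, from 16 to 37 bases. This division by length was chosen after the values were seen, and no test was made on it. All 14 short loci lay on the plus strand, that of the members, while the others were divided between 21 on the plus and 22 on the minus strand. The short loci lay within 54.9 kb before and 174 kb after the start of bta-miR-127, and the others from 389 kb before to 556 kb after it. The 11 short loci that are not members held 1887 counts, and none could be named here, since no annotation of UMD3.1 was used.

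Of the 14 short loci, 13 had a lower mean share of the deposited counts in large than in small follicles, as had 36.8% of the 4077 loci of this length outside the window. Of the 43 others, 4 had a lower share, as had 6.48% of the 97755 loci of other lengths outside it. Members make up 3 of the 14. The methods keep loci by reads merged over all samples, and several of the 14 held most of their counts in small samples. The locus at chr21:67603583, for example, had 37, 2 and 21 counts in small samples and 71 in all. A lower share in large follicles is thus partly set by that selection, inside and outside the window, and the tally is a description. Summed over the 14 short loci, the CPM of all deposited counts was 155 ± 97.7 in small follicles, 47.6 ± 38.7 in medium and 35.7 ± 26.6 in large ones (SD, n = 3 each), and outside the window the sum over short loci was also lower in large follicles, at 259768 ± 65602 in small and 59400 ± 34389 in large. The sum over the 43 others was 48.2 ± 6.30 in small follicles, 88.6 ± 11.5 in medium and 100.4 ± 19 in large ones (SD, n = 3). Outside the window the sum over loci of other lengths was higher in large follicles as well, at 740029 ± 65686 in small, 900331 ± 53415 in medium and 940464 ± 34397 in large. Without the 3 members, the 11 other short loci summed to 34.8 ± 25.1 in small follicles, 10.5 ± 8.74 in medium and 10.2 ± 8.77 in large ones (SD, n = 3), with means below those of the loci of other lengths at each size, although in small 4 the short loci held more (60.7 against 43.4).

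**Figure D4:**
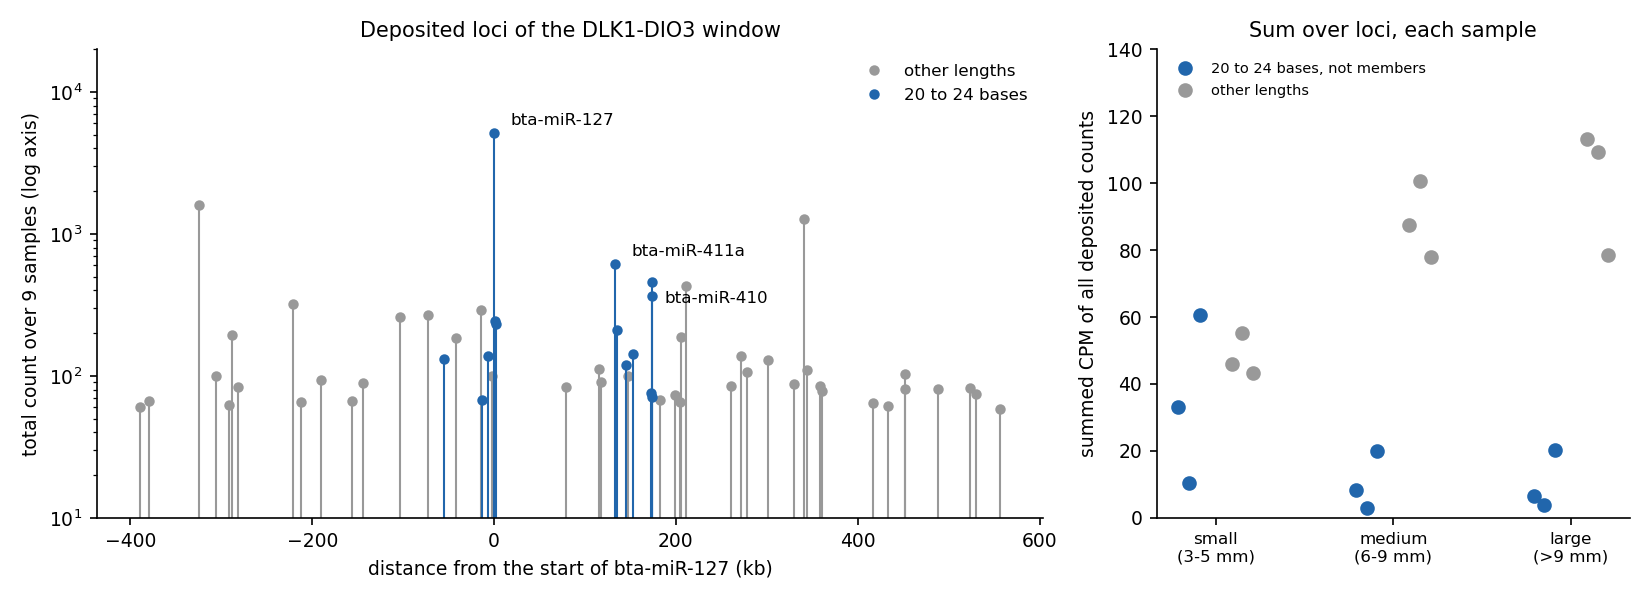
Left, total count over 9 samples (log axis) of the 57 deposited loci of the DLK1-DIO3 window against distance from the start of bta-miR-127, by length; right, summed CPM of all deposited counts for the 11 short loci that are not members and the 43 loci of other lengths, 1 point per sample. Short loci gather between -54.9 and 174 kb, and the sum over other lengths lies between 43.4 and 55.4 in small samples and at 77.8 or above in the rest.

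The 3 loci with the highest totals among the other 54 differed in direction. A locus of 28 bases at chr21:67104634-67104661 (minus strand, 1596 counts) had 7.79 ± 1.53 CPM of all deposited counts in small follicles, 16.4 ± 0.148 in medium and 25.1 ± 9.19 in large ones (SD, n = 3). One of 26 bases at chr21:67770757-67770782 (minus strand, 1279 counts) had 17.5 ± 2.40 in small follicles, 14.1 ± 11.5 in medium and 7.21 ± 3.60 in large ones (SD, n = 3). The third was the locus of 23 bases that lay 600 bases before bta-miR-410 (457 counts). It had 8.22 ± 5.39 in small follicles, 2.58 ± 2.41 in medium and 2.14 ± 3.18 in large ones (SD, n = 3). Neither of the 2 longer loci is in the study's table of predicted miRNA.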

How the data were processed

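Small RNA libraries of EV RNA from 9 pools were sequenced. The authors removed adapters, mapped reads to UMD3.1 with BWA 0.7.5a, per the labels, and deposited raw counts per locus, without normalization. Counts were used as deposited. The 249 known and homologous loci were normalized by TMM, and the 3 sizes were fitted in 1 model with the two-sided quasi-likelihood test of edgeR 4.0.16 (R 4.3.3, limma 3.58.1). P-values were adjusted by Benjamini-Hochberg within each comparison, with an FDR threshold of 0.05. Trends were tested by exact permutation in Python 3.11.15 (scipy 1.17.1), with 0.5 added to both counts of a ratio.

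Members, lists and tests were chosen with earlier results of these data known. Named loci were the members, the partner arm, tabulated miRNA within 1 Mb, the 3 loci most correlated with each member, and the 3 highest other loci of the window. On simulated counts for large versus small follicles (249 loci), 44 of 50 loci changed by 2 on the log2 scale were called, with 3 others. The changes went up and down in equal number, without a shift of the whole set. The simulation therefore says nothing about the choice of scaling. DESeq2 1.42.0, other scalings and left-out samples were alternatives. Neither labels nor methods tie samples to a collection day, and p-values therefore measure the spread between these pools. No sequence is printed, as none was used here.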

Additional observations from a re-analysis of the deposited data

How the results depend on the processing

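The fall of bta-miR-335 from small to large follicles kept its direction and an FDR under 0.05 under 10 alternatives (log2 fold change -8.77 to -4.21) and 9 fits with 1 sample left out (-4.75 to -4.01). No paired analysis was possible because neither labels nor methods say which samples share a collection, and no sample number recurs between sizes; differences between the 3 collections stay in the spread within a size. Under TMM over all deposited loci, the total of all deposited loci, and a test of all deposited loci, in that order, log2 fold changes from small to large became -3.77, -2.09 and -3.79 for bta-miR-127, -4.43, -2.69 and -4.46 for bta-miR-411a, -3.76, -2.06 and -3.78 for bta-miR-342 and -2.83, -1.26 and -2.85 for bta-miR-182. From small to medium they became -2.53, -1.53 and -2.55 for bta-miR-127 and -2.48, -1.55 and -2.50 for bta-miR-342. From medium to large they became -1.25, -0.56 and -1.24 for bta-miR-127, -0.93, -0.13 and -0.89 for bta-miR-411a, -1.53, -0.88 and -1.47 for bta-miR-410 and -1.28, -0.52 and -1.27 for bta-miR-342. For bta-miR-335 these settings gave -5.36, -4.15 and -5.38 from small to medium, then under 0.05, and -3.39, -3.01 and -3.40 from medium to large, then not under 0.05. They called 232, 192 and 173 of the 249 loci (4, 4 and 2 members) in large versus small, 109, 59 and 41 (3, 1 and 1) in medium versus small and 0, 0 and 0 (0, 0 and 0) between medium and large follicles. The lower miRNA share of large samples enters these scalings by construction. The counts of 4 and 3 members include bta-miR-411a and bta-miR-410, which were tabulated through small follicles alone. Their calls against small follicles are therefore a description.

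bta-miR-335 also passed from small to medium with edgeR's exact test (-2.32), DESeq2 (-2.19) and an FDR under 0.1 (-2.32), which called 16, 28 and 16 loci there, 1 member each, and 52, 63 and 65 in large versus medium. Fitting the 2 sizes alone gave 2 loci and 0 members in large versus medium, with -2.10 for bta-miR-335. DESeq2 size factors, DESeq2 and an FDR under 0.1 each called 2 members in large versus small, where they called 112, 125 and 125 of the 249 loci. Likewise, bta-miR-345-3p from small to medium became 0.053 with DESeq2 size factors, 0.071 with the set total, 0.054 with DESeq2 and 0.10 with 2 sizes alone. The share of bta-miR-127 had a slope of 0.0190 percentage points per size step over the set (exact permutation p = 0.0190) and -0.00565 over loci of 18 to 30 bases (exact permutation p = 0.0905). These settings differ in scaling, test, threshold or samples fitted, and the causes of the differences between them were not tested.

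With 1 sample left out, loci called ranged from 63 (without small 1) to 105 in large versus small (members 1 to 2), from 0 to 13 (without large 12) in medium versus small (members 0 to 1) and from 0 (without medium 5, medium 6 or large 11) to 24 in large versus medium (members 0 to 1), 5 without small 1, 15 without small 2 and, in large versus small, 69 without large 11. Log2 fold changes of bta-miR-335 ranged from -2.42 to -1.49 from medium to large and from -2.85 to -2.00 from small to medium. Between small and medium follicles they ranged from -0.072 to 0.54 for bta-miR-127, -0.41 to 0.54 for bta-miR-182, -0.30 to 0.36 for bta-miR-342 and -0.26 to 0.55 for bta-miR-345-3p. From small to large they ranged from -1.97 to 0.17 for bta-miR-410 and -1.40 to 1.10 for bta-miR-411a, and from medium to large from -0.84 to 0.67 for bta-miR-410, -0.39 to 2.11 for bta-miR-411a and -0.48 to 0.21 for chi-miR-335-3p. Slopes ranged from -1.45 to -1.10 for the arm ratio, -1.08 to -0.30 for the miR-411a to miR-127 ratio and -0.00458 to -0.00190 percentage points for the share of bta-miR-127.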
